A study of Rattus norvegicus with 6 samples.

Results

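The Toll-like receptors are innate immune receptors for microbial and self molecules. The genes described here are 6 of these receptors (Tlr1, Tlr2, Tlr4, Tlr6, Tlr7 and Tlr9) and 3 co-factors (Cd14, Ly96 and Myd88), taken by gene name from a table of 30600 rows that held 22050 annotated genes. Of the 9 genes, 8 had a row of that name, each a single row. Ly96, which encodes the MD-2 protein, was matched neither by name nor by a RefSeq synonym and is not analysed here. RNA from subchondral bone of rats was sequenced in 6 libraries, which are called S10, S12, S13, S20, S21, S23 after their titles and have total counts of 39990624 to 59200981. The series asks which molecules take part in cold stress and arthritis by setting animals at low temperature against animals at normal temperature. The labels tie no library to a temperature, and the sources used here state neither strain, sex, age and length of exposure nor whether the libraries came from separate animals. No groups were therefore compared, and every value below describes a library, with its level in FPKM (fragments scaled to transcript length and sequencing depth, so that genes can be compared per length).

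Receptors of this family recognise microbial products through an outer or luminal domain and signal through an inner TIR domain. TLR4 binds bacterial lipopolysaccharide together with MD-2, and CD14 hands the lipopolysaccharide over to them. TLR2 pairs with TLR1 or TLR6 at the cell surface to recognise bacterial lipopeptides, whereas TLR7 and TLR9 sit in endosomes and recognise single-stranded RNA and unmethylated CpG DNA. MyD88 is the adaptor through which all 6 of these receptors activate NF-kB. In bone and marrow these genes are carried mainly by myeloid cells and B cells, and ligands of the receptors are known to act on osteoclast precursors and osteoblasts.

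The proximal promoters of 4 genes are shown because the ratios of Tlr2 and of Cd14 to Tlr4, and the level of Tlr9, differed widely between libraries. Each run is the 250 bases before the annotated start in RefSeq (build GRCr8), 5′ to 3′ on the strand of the gene. Capitals mark matches, on either strand, to 4 motifs: GAGGAA (core of the PU.1 site), GGG and CC with any 5 bases between them (NF-kB), TTGCNNAA (C/EBP) and TGANTCA (AP-1).
Tlr2 (chr2:171504558-171504807, minus strand): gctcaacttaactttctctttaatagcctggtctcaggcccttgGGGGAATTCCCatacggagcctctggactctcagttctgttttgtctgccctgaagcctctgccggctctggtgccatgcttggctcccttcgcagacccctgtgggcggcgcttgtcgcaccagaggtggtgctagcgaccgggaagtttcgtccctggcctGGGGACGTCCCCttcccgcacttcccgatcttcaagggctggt
Tlr4 (chr5:85160997-85161246, plus strand): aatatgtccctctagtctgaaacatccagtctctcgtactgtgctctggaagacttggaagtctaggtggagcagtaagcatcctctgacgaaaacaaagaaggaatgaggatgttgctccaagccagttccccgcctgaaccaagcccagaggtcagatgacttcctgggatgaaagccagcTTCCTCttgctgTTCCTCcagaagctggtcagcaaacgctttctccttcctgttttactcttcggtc
Cd14 (chr18:28611159-28611408, minus strand): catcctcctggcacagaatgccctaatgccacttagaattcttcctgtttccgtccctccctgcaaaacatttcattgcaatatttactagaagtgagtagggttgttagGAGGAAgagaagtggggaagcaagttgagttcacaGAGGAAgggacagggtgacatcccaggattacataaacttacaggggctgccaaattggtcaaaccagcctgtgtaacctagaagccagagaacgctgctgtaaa
Tlr9 (chr8:115743157-115743406, plus strand): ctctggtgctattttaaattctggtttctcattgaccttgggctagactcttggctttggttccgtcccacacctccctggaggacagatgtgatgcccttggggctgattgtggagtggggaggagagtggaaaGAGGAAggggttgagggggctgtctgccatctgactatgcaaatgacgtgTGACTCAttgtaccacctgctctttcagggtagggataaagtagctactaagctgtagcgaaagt

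In the Tlr2 window the capitals are 2 blocks of overlapping NF-kB matches, 206 to 196 and 43 to 32 bases before the start, and no PU.1 core was found. The Tlr4 window held 2 PU.1 cores on the opposite strand, 67 to 62 and 55 to 50 bases before the start, and the Cd14 window 2 on its own strand, 140 to 135 and 105 to 100 bases before the start. The Tlr9 window held 1 PU.1 core (115 to 110 bases before the start) and the AP-1 match TGACTCA (65 to 59 bases before it). Of 33469 RefSeq promoter windows of the same length, 23.3% held the PU.1 core, 42.3% the NF-kB motif, 9.22% the C/EBP motif and 6.34% the AP-1 motif. These matches describe the letters of the windows and were not tied to the levels below.

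The adaptor and the lipopeptide receptor led the set, and the endosomal DNA receptor closed it. Median FPKM over the libraries was 26.6 for Myd88, 18.6 for Tlr2, 10.4 for Cd14, 6.28 for Tlr7, 2.99 for Tlr4, 2.97 for Tlr1, 2.73 for Tlr6 and 0.387 for Tlr9. A median of 1 FPKM or more was taken as expressed. This holds for 11625 annotated genes, among them 7 of the 8 described here, with Tlr9 below the limit. Myd88 stood above 77.5% of expressed genes, Tlr2 above 70.0%, and Tlr4 above 20.4%. Neighbours in this order overlapped in their ranges over the libraries, except Tlr6 and Tlr9. Within each library the order was firmer: Myd88 was above Tlr2, Tlr2 above Cd14, Cd14 above Tlr7 and Tlr7 above Tlr4 in 6 of 6 libraries. Tlr4, Tlr1 and Tlr6 could not be put in order, since Tlr4 exceeded Tlr1 in 2 of 6 libraries and Tlr1 exceeded Tlr6 in 4 of 6.

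**Figure D1:**
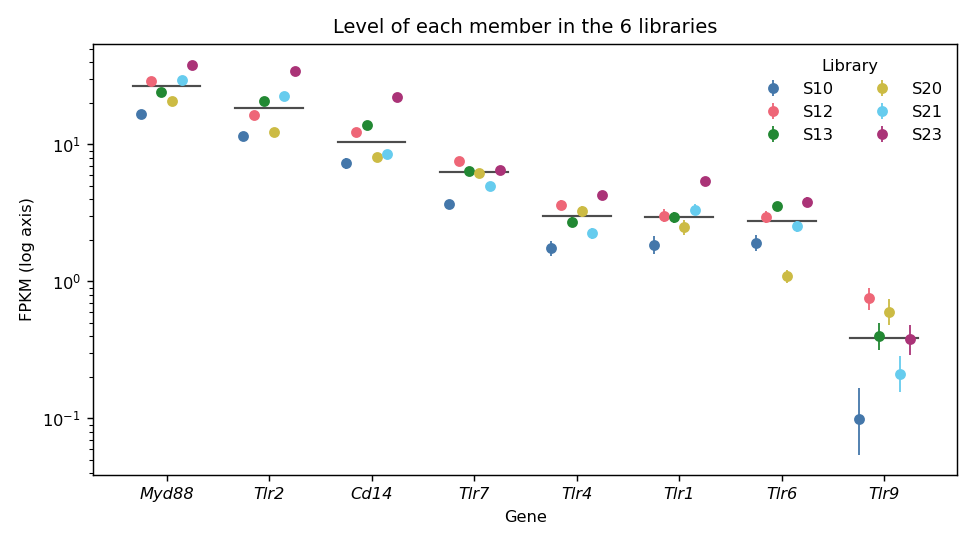
Level of each gene (FPKM, log axis) in the 6 libraries, with 95% exact Poisson intervals of the counts as bars and the median over libraries as a line. Genes are sorted by median, from Myd88 at 26.6 FPKM to Tlr9 at 0.387 FPKM, and S10 is the lowest library of every gene but Tlr6, as it is for 60.1% of expressed genes.

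Among the surface receptors Tlr2 was the most abundant and had the widest range on the log2(FPKM + 1) scale. Tlr2 (ENSRNOG00000009822) had 34.1 FPKM in S23, 22.5 in S21, 20.8 in S13, 16.3 in S12, 12.3 in S20 and 11.6 in S10. S23 stood apart at the top, and S10 and S20 lay together at the bottom. The range of 1.48 on the log2(FPKM + 1) scale was larger than that of 86.5% of expressed genes, and without S23 the highest library was 1.94-fold above the lowest instead of 2.94-fold. Tlr1 (ENSRNOG00000038722), a partner of Tlr2, had 5.36 FPKM in S23, 3.34 in S21, 3.02 in S12, 2.93 in S13, 2.47 in S20 and 1.85 in S10. It was again highest in S23 and lowest in S10, with 4 libraries close together between them. Its log2 range of 1.16 was 0.61 without S23.

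The lipopolysaccharide receptor Tlr4 (ENSRNOG00000010522) had 4.27 FPKM in S23, 3.61 in S12, 3.25 in S20, 2.72 in S13, 2.25 in S21 and 1.74 in S10. It shared its lowest and highest library with Tlr2, but its order between them differed: S12 and S20, low for Tlr2, came next to the top for Tlr4, and S21 fell near the bottom. Its log2 range was 0.94. Cd14 (ENSRNOG00000017819), the lipopolysaccharide co-receptor, had 22.2 FPKM in S23, 13.8 in S13, 12.3 in S12, 8.51 in S21, 8.02 in S20 and 7.26 in S10. S23 held 3.06 times the level of S10 and the log2 range was 1.49. Without S23 these values were 1.90 and 0.84, and S10, S20 and S21 lay close together at the bottom.

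In the deposited FPKM both endosomal receptors of the set were highest in S12, where 26.6% of expressed genes were highest. Tlr7 (ENSRNOG00000004249) had 7.54 FPKM in S12, 6.52 in S23, 6.37 in S13 and 6.20 in S20, and in S21 and S10 it had 4.95 and 3.66. It was highest in S12 (in S13 with the TMM scaling described below), and its log2 range of 0.87 was near the middle of expressed genes, above 53.7% of them. Tlr9 (ENSRNOG00000048161) had 117 counts in S12 (0.751 FPKM), 87 in S20 (0.600), 76 in S13 (0.397), 64 in S23 (0.377), 45 in S21 (0.212) and 14 in S10 (0.0985). The exact 95% Poisson intervals, which cover counting error only, ran from 0.0538 to 0.165 FPKM in S10 and from 0.621 to 0.900 FPKM in S12. S12 and S20 overlapped in their intervals, S10 and S12 did not. The 7.63-fold difference between S12 and S10 was thus larger than counting error, but its log2 range with a pseudocount of 1 was 0.67 because the level is low. The RefSeq span of Rpl29, a ribosomal protein gene, overlaps that of Tlr9. Rpl29 was lowest in S12 (678 FPKM), the library with the most Tlr9, and highest in S23 (886 FPKM).

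Myd88 (ENSRNOG00000013634), the shared adaptor, had 37.8 FPKM in S23, 29.6 in S21, 29.1 in S12, 24.1 in S13, 20.6 in S20 and 16.6 in S10. Its order, S23 at the top and S10 then S20 at the bottom, was that of Tlr2 apart from S12 and S13 changing places, and its log2 range was 1.14. In RefSeq the annotated span of Acaa1a, a peroxisomal thiolase gene, overlaps that of Myd88, and the sources used here do not say whether the counting used strand. Acaa1a stood at 14.7 FPKM in S20 and 20.3 FPKM in S23, a narrower range than that of Myd88.

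The deposited FPKM of Tlr6 in S20 does not follow its count. Tlr6 (ENSRNOG00000002161), the other partner of Tlr2, had 3.79 FPKM in S23, 3.53 in S13, 2.95 in S12, 2.52 in S21, 1.91 in S10 and 1.09 in S20, which makes S20 the lowest library. In CPM (the count scaled to the total count of the library) it had 12.5 in S23, 11.2 in S13, 9.35 in S12, 8.52 in S20, 8.18 in S21 and 5.78 in S10, and here S10 was lowest and S20 lay in the middle. The length that links a count to its FPKM was 7807 bases for Tlr6 in S20 and 3025 to 3293 bases in the other 5 libraries. Of 10279 genes above 1 FPKM in all libraries, 0.0681% (7 genes) had in S20 a length more than 1.41-fold off that of their other libraries. With the length of the other libraries, the S20 count would correspond to 2.67 FPKM, the lowest library would be S10, and the log2 range of Tlr6 would fall from 1.19 to 0.72. In the deposited scaling, the counts of genes lowest in S10, of genes also highest in S23, and of variable genes are given with and without this value. Counts under other scalings or with a library left out use the deposited value. So does the count of libraries with Tlr1 above Tlr6. Tlr1 and Tlr6 are close paralogues, and the sources used here do not say how reads that fit both were counted.

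**Figure D2:**
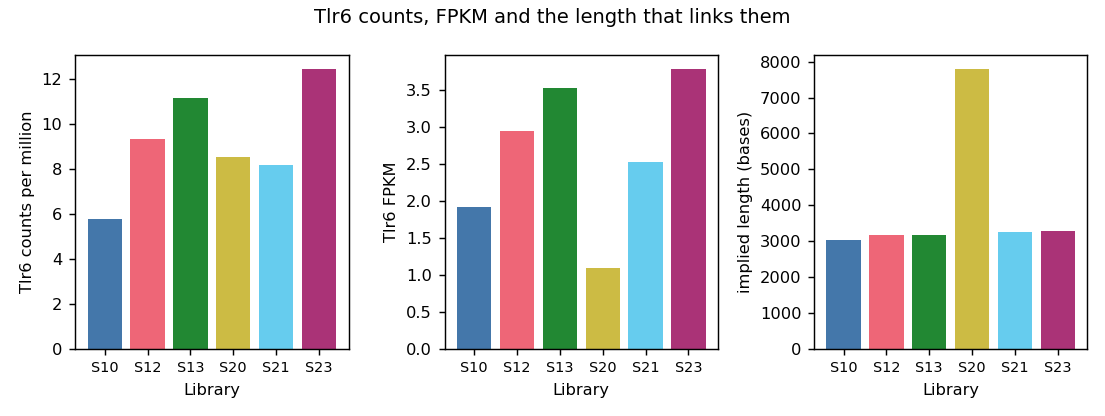
Tlr6 in CPM, in FPKM, and as the transcript length in bases implied by the 2, as a bar for each of the 6 libraries, all axes from 0. S20 is in the middle of the counts, lowest in FPKM, and has an implied length of 7807 bases against 3025 to 3293 in the other libraries.

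Over the set, 6 of 8 genes were highest in S23 (Tlr1, Tlr2, Tlr4, Tlr6, Cd14 and Myd88), where 24.0% of expressed genes were highest. In S10, 7 of 8 were lowest (all but Tlr6), but so were 60.1% of expressed genes. Of the 8, 5 were both highest in S23 and lowest in S10, as were 13.8% of expressed genes. With Tlr6 in S20 at the length of its other libraries these counts were 8 of 8 lowest in S10 and 6 of 8 both. A log2 range of at least 1, here called variable, was reached by 5 of 8 genes (Tlr1, Tlr2, Tlr6, Cd14 and Myd88) and by 36.6% of expressed genes. With the same change to Tlr6, 4 of 8 were variable. Without S23, 1 of 8 was variable (Tlr6, with its deposited S20 value), against 32.0% of expressed genes. At the length of its other libraries Tlr6 had a range of 0.72 over all 6 libraries, so it would not be variable without S23 either. In CPM, the exact 95% Poisson intervals of the highest and the lowest library did not overlap for any of the 8 genes. Those of the highest and second highest library overlapped for Tlr6 and Tlr9. The share of all expressed genes without overlap was not computed. The intervals cover counting error only and the libraries were picked by their values, so these counts show no trait of the set.

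The low position of S10 was shared with genes at large and depended on scaling. The median over expressed genes of log2(FPKM + 1) minus the gene's own median was -0.31 in S10 and 0.14 in S12. With the trimmed-mean factors of edgeR (TMM), these medians were -0.0015 and -0.0043. After this scaling 3 of 8 genes were lowest in S10 (Tlr4, Tlr7 and Tlr9), close to the share of all expressed genes (32.9%), and 5 of 8 were lowest in S20 (Tlr1, Tlr2, Tlr6, Cd14 and Myd88), where 25.6% of expressed genes were lowest. S23 was still the highest library of 5 of 8 genes (Tlr1, Tlr2, Tlr4, Cd14 and Myd88), against 16.0% of expressed genes, while Tlr6 and Tlr7 were highest in S13. The log2 ranges of Tlr2 and Cd14 hardly moved, at 1.44 and 1.40, those of Tlr1 and Myd88 fell below 1 to 0.89 each, and that of Tlr7 fell to 0.39.

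**Figure D3:**
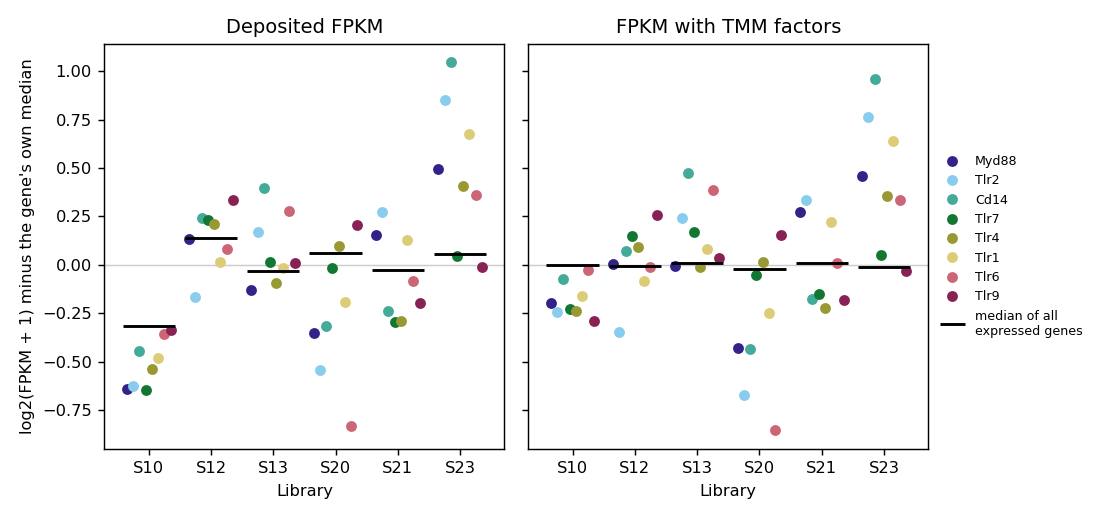
log2(FPKM + 1) of each gene minus its own median, by library, for the deposited FPKM (left) and for FPKM with TMM factors (right), with the median of all expressed genes as a black line. In S10 that line moves from -0.31 to -0.0015 with TMM factors, while Cd14, Tlr2 and Tlr1 stay highest in S23.

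Ratios between genes within a library do not depend on how the libraries are scaled. The ratio of Tlr2 to Tlr4 was 3.79 in S20 and 4.51 in S12, and 6.66 in S10, 7.64 in S13, 7.99 in S23 and 9.99 in S21. S20 and S12 thus held the least Tlr2 for each unit of Tlr4. The ratio of Cd14 to Tlr4 was likewise lowest in S20 (2.47) and S12 (3.40), and highest in S13 (5.07) and S23 (5.20). The ratio of Tlr1 to Tlr2 was the steadiest of the 7 examined, from 0.141 in S13 to 0.201 in S20, a 1.43-fold spread, although the level of each gene spread 2.90-fold or more. Other pairs within the set were not examined as ratios, so this does not set the receptor partners apart. The ratio of Tlr7 to Tlr9 moved most, from 10.3 in S20, with S12 just below it, to 23.3 in S21 and 37.2 in S10, where Tlr9 rests on 14 counts. The ratio of Myd88 to Tlr4 ran from 6.33 in S20 to 13.2 in S21. The ratio of Tlr1 to Tlr6 was 2.27 in S20, with the Tlr6 value described above, and 0.829 to 1.41 in the other libraries.

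**Figure D4:**
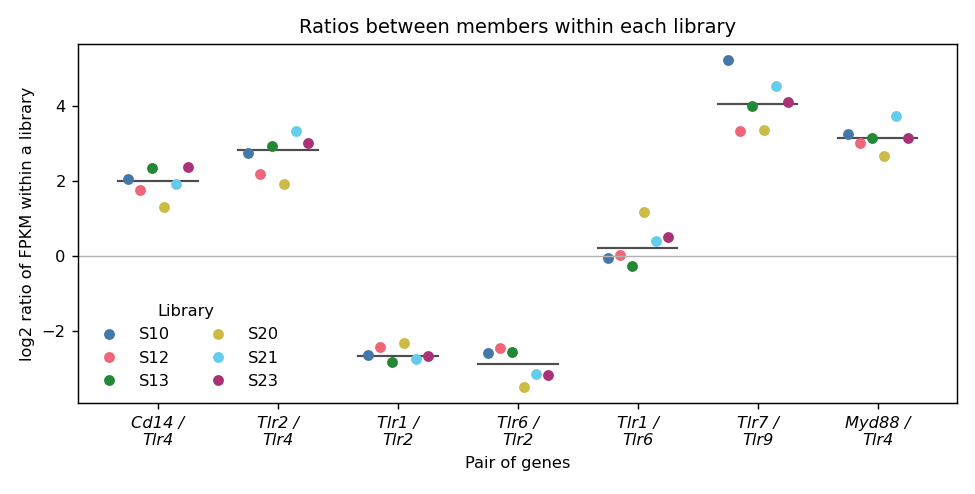
log2 ratio of FPKM for 7 pairs of genes, with a point for each library and the median as a line. Tlr1 to Tlr2 is the tightest of these 7 pairs, and S20 and S12 are the lowest points of Cd14 to Tlr4 and of Tlr2 to Tlr4.

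In the make-up of the whole receptor family, too, S20 and S12 held the least Tlr2. Besides the 6 receptors above, Tlr3, Tlr5, Tlr8, Tlr11, Tlr12 and Tlr13 had a row (Tlr13 through a RefSeq synonym), and Tlr10 had none of that name. Tlr13, a receptor for bacterial ribosomal RNA, was next after Tlr2, with a median of 7.57 FPKM, and unlike Tlr7 and Tlr9 it was highest in S23 (10.5 FPKM, against 9.27 in S12). Tlr8 had a median of 3.22 FPKM, the flagellin receptor Tlr5 of 1.75 FPKM, and the double-stranded RNA receptor Tlr3 of 0.961 FPKM. Tlr11 and Tlr12 stayed at or under 0.157 FPKM. The summed level of the 12 receptors ran from 25.5 FPKM in S10 to 72.9 FPKM in S23. Tlr2 made up 29.8% of it in S20 and 30.8% in S12, against 42.6% in S13, 45.5% in S10, 46.8% in S23 and 48.1% in S21. Tlr7 made up 8.94% in S23 and 15.0% in S20, and Tlr4 4.81% in S21 and 7.85% in S20.

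**Figure D5:**
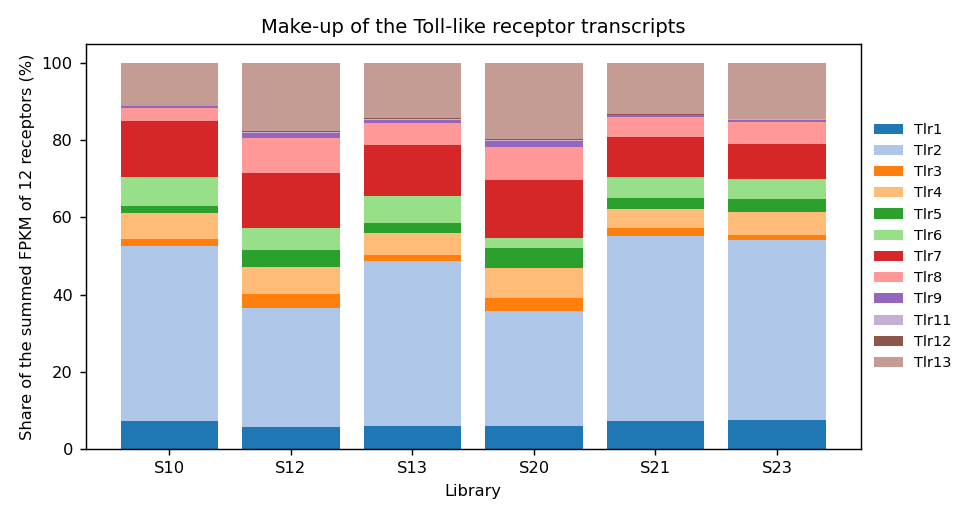
Share of each of 12 Toll-like receptors in their summed FPKM, as a stacked bar for each library. The Tlr2 share is 29.8% in S20 and 30.8% in S12 and lies between 42.6% and 48.1% in the other 4 libraries.

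Markers of marrow cells differed between the same libraries. All 8 expressed genes of the 9 neutrophil markers were highest in S23, as were 24.0% of all expressed genes. The neutrophil sum was 15238 FPKM in S20, 19712 in S12, 37914 in S13, 40460 in S21, 40814 in S10 and 70411 in S23. S100a9 and S100a8 make up most of this sum, and in the deposited FPKM it does not give the order of the whole list. Of the 8, 4 (Mpo, Mmp8, Cxcr2 and Csf3r) were lowest in S10, as were 60.1% of expressed genes. Cxcr2 had 12.5 FPKM in S10 against 43.3 in S12, and Csf3r 11.3 FPKM against 35.1. TMM factors multiply S10 by 1.31 and S20 by 0.893, and the marker counts were not recomputed with them. Ltf, the other neutrophil marker, was near 0 with a median of 0.0230 FPKM. The 3 monocyte markers with a row (led by Lyz2 and Fcgr1a) were also all highest in S23, beside the same 24.0% of expressed genes. The monocyte sum was 3807 FPKM in S20 and 15487 FPKM in S23. Of 9 expressed macrophage markers, led by C1qa and C1qc, 1 (Cd68) was highest in S23 and 6 in S12. Of all expressed genes, 24.0% and 26.6% were highest there. Marco, the other one, had no count in any library. In the deposited FPKM all 6 B cell markers, led by Cd79b and Cd79a, were highest in S12, as were 26.6% of expressed genes. The B cell sum, 61.1 FPKM in S23, reached 235 FPKM in S12. This lead of S12 depends on scaling: TMM factors multiply S12 by 0.864, and Cd79b had 83.6 FPKM in S12 and 67.2 FPKM in S10. The sum of the 4 plasmacytoid dendritic cell markers, led by Bst2 and Irf8, ran from 91.0 to 126 FPKM, with Siglech at a median of 0.412 FPKM. The part of these cell types in the receptor levels was not tested, and in bulk RNA a smaller number of cells of a type and less RNA per cell cannot be told apart. For the labelled tissue, all 7 osteoblast markers (led by Bglap and Col1a1) and 4 of 6 osteoclast markers (led by Ctsk and Acp5) were expressed. The osteoblast sum was 737 FPKM in S23 and up to 1188 FPKM elsewhere, and the osteoclast sum 410 to 796 FPKM. The sum of the 4 erythroid markers with a row, led by Alas2 and Slc4a1, ran from 691 FPKM in S23 to 1817 FPKM in S20.

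The other genes of the pathway were mostly expressed. Of 74 listed genes outside the set, 70 had a row and 58 were expressed. Of these 58, 30 were variable, 23 were highest in S23 and 40 were lowest in S10, beside the 36.6%, 24.0% and 60.1% of all expressed genes. With TMM factors 20 were variable, where 29.4% of all expressed genes were. Without S10 in the deposited values 8 were, where 13.6% of all expressed genes were.

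Upstream of the receptors, Lbp, the lipopolysaccharide-binding protein, had a median of 72.0 FPKM, Ly86 (MD-1) of 14.2 FPKM and the nuclear alarmin Hmgb1 of 11.6 FPKM. Lbp, Ly86 and Cd180, which pairs with MD-1, were variable. Lbp was highest in S23 at 114 FPKM, Ly86 in S13 and Cd180 in S20. The folding and trafficking genes had the highest levels of the pathway roles: the chaperone Hsp90b1 had a median of 138 FPKM, Unc93b1, which carries TLR7 and TLR9 to endosomes, of 67.2 FPKM, and Lrrc59 of 39.3 FPKM. Of these 7 genes 2 were variable, Lrrc59 and Ap3b1. Among the adaptors other than Myd88, Pik3ap1 had a median of 14.6 FPKM, Tirap, which links MyD88 to TLR2 and TLR4, of 2.22 FPKM, and Ticam2, the TRIF-related bridge of TLR4, of 2.16 FPKM. Pik3ap1 and Tirap were variable, and Tirap stood at 0.334 FPKM (11 counts) in S10 and at 2.73 FPKM in S20.

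Downstream, all 16 kinases and ubiquitin ligases were expressed. In the deposited values 15 were lowest in S10, where 60.1% of all expressed genes were lowest. With TMM factors that share was 32.9%, and the count for this role was not recomputed. Irak1, a kinase bound by MyD88, had a median of 32.9 FPKM, Btk of 30.7 FPKM and Tab2 of 27.1 FPKM. The 8 variable genes of this role were Irak1, Traf3, Map3k7, Tab2, Tab3, Ikbkg, Ikbke and Peli1. Among transcription factors the highest medians were those of Irf8 (41.3 FPKM), Irf7 (34.1 FPKM) and Irf3 (26.5 FPKM), and Nfkb1, Nfkb2, Irf5 and Irf7 were variable. Irf7 differed from most of the set in S23, where it was lowest (18.2 FPKM), just below S20 (18.8 FPKM). It was highest in S13 (57.1 FPKM). Of 10 expressed negative regulators, 6 were variable: Irak3, Tollip, Tnfaip3, Nfkbia, Nfkbiz and Cyld. Nfkbia, the inhibitor of NF-kB that NF-kB itself induces, had a median of 42.9 FPKM, Tollip of 15.4 FPKM and Cyld of 10.6 FPKM. Among 14 target genes 6 were expressed, led by Il1b (14.5 FPKM), Cd86 (6.74 FPKM) and Cd40 (6.56 FPKM). The 2 variable ones were Il1b and Nos2, the inducible nitric oxide synthase, and Nos2 ranged from 1.38 FPKM in S10 to 10.2 FPKM in S23.

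Genes with a like profile were sought by the largest difference, in any of the 6 libraries, between the log2(FPKM + 1) profiles after each gene's own median was taken off. Closest to Myd88 were Ptger4, a prostaglandin E2 receptor gene (largest difference 0.06), the interferon regulatory factor gene Irf1 (0.07) and the inflammasome sensor gene Nlrp3 (0.08). Closest to Tlr1 were Stxbp2 (0.08), Acpp (0.09) and Cyp4f39 (0.10), and closest to Tlr4 were Ptpro (0.08), Crebl2 (0.12) and Tmem106b (0.12). Tlr2 lay nearest to Napsa (0.17), the transferrin gene Tf (0.18) and Igsf6 (0.19). Cd14 had no close match, with 0.24 for the clone-named gene AABR07026271.1, 0.26 for Snx10 and 0.29 for Ly6c. Tlr6, with its deposited S20 value, lay nearest to Slfn2 (0.09), Clec4a2 (0.15) and Samsn1 (0.19). Within the set, Myd88 and Tlr1 were the closest pair (0.18, with 48 of 11624 expressed genes closer to each of them). Tlr1 and Tlr2 differed by 0.35, with 558 of 11624 expressed genes closer to Tlr1. Cd14 and Tlr9 lay far apart (1.06). Tlr4 and Tlr6 differed by 0.93, but this is their difference in S20 with the deposited value of Tlr6. The distance between Tlr4 and Tlr6 was not recomputed with Tlr6 in S20 at the length of its other libraries. With 6 libraries and 11625 genes compared, close profiles are a description of these libraries.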

How the data were processed

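Total RNA was taken up in libraries with a SMARTER mRNA-Seq kit after RNeasy isolation, per the labels' protocols. The deposited table holds whole-number counts per gene, without normalization, and the authors' FPKM values, per the file headers, with library sums of 811992 to 1047310. The sources used here name no aligner, counting tool or strand setting. The submitters' processing notes name the mouse builds GRCm38 and mm10, while the rows carry rat Ensembl IDs, so no coordinates are given for them. Of 30610 rows, 10 without values were left out, and 8550 unnamed loci (27.9% of rows with values) stay in the total counts only. 

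All 6 libraries are unassigned, so no group was formed and no test was run; n is 6 libraries throughout. Spread is the range of log2(FPKM + 1), which understates the spread of low genes. Intervals are exact 95% Poisson intervals of counts. TMM factors came from edgeR 4.0.16 and median-ratio factors from DESeq2 1.42.0. Alternatives were these scalings, a common FPKM sum, CPM, a pseudocount of 0.1, other FPKM minimums and leaving out each library. The Tlr6 length alternative was chosen after seeing the data. Named were all members, every other Toll-like receptor, in each other pathway role the 3 highest medians and each variable expressed gene, the 2 highest genes of each marker list, and the 3 nearest profiles of Tlr4 and of each variable member. Acaa1a, Rpl29, Mpo, Mmp8, Cxcr2, Csf3r, Ltf, Cd68, Marco, Siglech, Cxcl1, Cxcl2 and Tnf were named after their values were seen. Members and lists were chosen with earlier results of these data known. The scripts were tested on simulated data. Promoter sequences came from a RefSeq table (GRCr8) in which 8 of the 9 members had an entry.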

Additional observations from a re-analysis of the deposited data

How the results depend on the processing

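Of 302 values recomputed under 14 alternatives, 232 values of single genes or gene pairs stayed within 1 SD over the libraries. Another 48, all counts, stayed within 1.5 times the main count, 13 and 8 moved further, and 1 changed sign. Many of these values could not change. Ratios within a library do not depend on the 3 scalings, the Tlr6 length alternative touches Tlr6 only, and leaving out a library between the extremes keeps the range. The order of the medians held for 7 of 7 neighbouring pairs under the 3 scalings and for 6 or 7 of 7 when 1 library was left out. The number of genes highest in S23 was 5 to 7 of 8 wherever S23 was kept. The share of expressed genes highest there ran from 15.5% (median-ratio scaling) to 32.4% (common FPKM sum). It was 30.3% without S12, where the count was 7. The number lowest in S10, 7 of 8 in the deposited values, was 3 under TMM and 3 under median-ratio scaling (32.9% and 32.1% of expressed genes). The number of variable genes, 5 of 8, was 3 under TMM, 3 under median-ratio scaling and 8 with a pseudocount of 0.1, where 29.4%, 29.3% and 48.6% of expressed genes were variable. Each of these counts includes Tlr6 with its deposited S20 value. Leaving out 1 library gave 1 to 5 variable genes, with 1 (Tlr6) without S23 and 3 (Tlr2, Tlr6 and Cd14) without S10, where 32.0% and 13.6% of expressed genes were variable. In both, Tlr6 is variable with its deposited S20 value. Of the other pathway genes, 30 were variable, and 8 to 29 when 1 library was left out, with 8 without S10. The median log2 ratio of Tlr1 to Tlr6 was 0.22 and became -0.0080 with Tlr6 in S20 at the length of the other libraries. Counts of genes highest in S23 without S23, or lowest in S10 without S10, cannot be given. No paired analysis was possible because the libraries belong to no group. Depth limits mainly Tlr9, with 14 to 117 counts per library.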

Other observations

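Cxcl1 and Cxcl2, chemokine targets of the pathway too low to count as expressed, also stood out in S23. Cxcl1, a neutrophil attractant, reached 3.36 FPKM in S23 on 161 counts, where the other libraries held 7 to 30 counts. Cxcl2 reached 0.657 FPKM in S23 on 37 counts, and the others held 0 to 10. Not every target that low did so: Tnf was lowest in S23 (0.351 FPKM on 31 counts) and highest in S20 (0.978 FPKM). Cxcl1, Cxcl2 and Tnf were picked after their values were seen.

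Lengths implied by count and FPKM that were more than 1.41-fold off a gene's other libraries, as for Tlr6 in S20, were found in every library. They concerned 17 of 10279 genes in S10, 7 in S20, 7 in S23, 5 in S13, and 4 each in S12 and S21.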
